A study of Mus musculus with 3 samples.

Results

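The genes of mitosis and the spindle checkpoint were examined by RNA-seq in 3 stable BCR::ABL1+ leukemic cell lines that carry a kinase inactive CDK6. The set was a list of 36 gene symbols, matched by symbol to the identifiers of the count table, and all 36 were found among the 50686 genes of that table. The rule used gene names and no measured value, but the list was chosen with earlier results of these data known. The list holds the cyclin-CDK engine of mitotic entry with its phosphatases, the spindle checkpoint, the mitotic kinases, the anaphase promoting complex with separase, kinetochore proteins, kinesins and spindle proteins, 2 chromosome proteins and 2 transcription factors.

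The 3 lines were derived from mouse bone marrow cells homozygous for the Cdk6 K43M allele (Cdk6 KM/KM) and are labelled Pre/Pro-B-cells. K43M replaces lysine 43 of the kinase domain and leaves a protein without kinase activity. The bone marrow cells, of C57BL/6 background per the study's methods, received BCR-ABL(p185) from a retrovirus that also encodes GFP, and grew out as permanent lines without a further treatment or time course. All 3 lines therefore share the mutation and the oncogene. The age and sex of the mice, and whether the lines came from separate mice, were not given in the sources used here. Lines that grow out of a transduced culture can consist of few clones, and each line is called here by its replicate number, line 1, line 2 or line 3. Libraries of wildtype and knockout cells were not analysed here, so the comparison made is between the 3 Cdk6 KM/KM lines. It asks how evenly the mitotic program was expressed in separate lines of 1 genotype.

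Mitosis is driven by CDK1 bound to cyclin A or B. PLK1 and the Aurora kinases build the spindle, and sensors at kinetochores, the protein platforms on centromeres that bind microtubules, hold back the anaphase promoting complex until every chromosome is attached. CDC20 then activates this ubiquitin ligase, securin and cyclin B are destroyed, and separase cuts cohesin. Most of these genes are silent in G0 and G1 and are switched on together in G2. The DREAM complex represses them, and the MuvB core with B-MYB (Mybl2) and then FOXM1 activates them, mainly through a promoter element called CHR (cell cycle genes homology region) and upstream CCAAT boxes bound by NF-Y. In proliferating B-cell precursors and B-cell leukemia these transcripts serve as markers of dividing cells.

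The libraries held 21569845, 19633463 and 25773221 counts, and a gene without a count could still have up to 3, which equals 0.138, 0.152 and 0.118 CPM (counts scaled to a library of 1000000). These limits, like all intervals given here, cover only the error of counting. Cdk6 itself was at 449.5, 334 and 239 CPM in lines 1 to 3, and counts per gene do not show the K43M change. All 10 B-cell precursor markers (Pax5, Rag1, Ebf1 and others) reached 1 CPM in every line and summed to 3786 to 4256 CPM. Myeloid markers summed to 1.75 to 3.93 CPM, with 2 of 6 at 0 in every line, and erythroid markers to 0.118 to 0.322 CPM, with 2 of 5 at 0. All 5 stromal markers were at 0. The T cell markers summed to 24.3 to 50.6 CPM, with 3 of 6 at 0, and Lck alone made up 24.3, 50.6 and 43.2 CPM of these sums.

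To show what the mitotic genes share in sequence, their promoters were searched for the letters of the CHR (TTTGAA or TTCGAA), the CCAAT box of NF-Y (CCAAT) and the E2F site (TTTCCCGC, TTTGGCGC or TTTCGCGC) on both strands. The palindrome TTCGAA was counted once, and none of the motifs contains another. Windows ran from 250 bases before to 50 bases after the start of transcription, from RefSeq on GRCm38.p6, the assembly also called mm10. Of the 36 genes, 29 had a window. Ccna2, Cdc25c, Aurkb, Incenp, Kif20a, Tpx2 and Foxm1 had none. The stretches below run 5′ to 3′ along each gene from 120 bases before to 30 after the start, with CHR and CCAAT letters of either strand in capitals. The first 7 were chosen because they hold both elements and belong to members described below by their level or by their variation between lines.

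Ccnb2 (chr9:70421525-70421674, minus strand): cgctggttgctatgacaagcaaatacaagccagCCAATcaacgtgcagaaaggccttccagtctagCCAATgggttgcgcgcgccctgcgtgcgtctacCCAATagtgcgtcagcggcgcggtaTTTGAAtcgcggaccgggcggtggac
Cdk1 (chr10:69352883-69353032, minus strand): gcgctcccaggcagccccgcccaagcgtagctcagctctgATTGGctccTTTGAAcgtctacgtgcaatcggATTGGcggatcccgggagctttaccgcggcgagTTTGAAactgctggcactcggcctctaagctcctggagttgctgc
Top2a (chr11:99024160-99024309, minus strand): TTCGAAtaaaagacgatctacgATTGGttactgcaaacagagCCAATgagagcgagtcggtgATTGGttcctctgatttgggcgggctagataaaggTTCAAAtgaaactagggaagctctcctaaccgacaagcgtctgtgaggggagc
Cdc20 (chr4:118437314-118437463, minus strand): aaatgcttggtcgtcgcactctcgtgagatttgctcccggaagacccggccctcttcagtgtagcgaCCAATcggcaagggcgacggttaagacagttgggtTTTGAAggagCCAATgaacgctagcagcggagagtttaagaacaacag
Ube2c (chr2:164769809-164769958, plus strand): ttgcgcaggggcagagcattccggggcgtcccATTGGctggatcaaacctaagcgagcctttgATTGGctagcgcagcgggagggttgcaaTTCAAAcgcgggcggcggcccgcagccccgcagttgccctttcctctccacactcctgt
Cenpf (chr1:189688057-189688206, minus strand): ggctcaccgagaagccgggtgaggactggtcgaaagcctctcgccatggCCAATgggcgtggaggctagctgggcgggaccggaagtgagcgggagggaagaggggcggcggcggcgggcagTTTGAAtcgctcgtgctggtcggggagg
Cdc25b (chr2:131186828-131186977, plus strand): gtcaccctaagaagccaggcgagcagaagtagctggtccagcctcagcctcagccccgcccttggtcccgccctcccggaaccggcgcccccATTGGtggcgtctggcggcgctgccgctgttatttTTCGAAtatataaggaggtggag

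In Ccnb2, the gene of cyclin B2, CCAAT began at positions -87, -54 and -21 and TTTGAA at position 5, counted from the start of transcription as 1. Cdc20 and Cenpf carry the same pair of letters at other distances, and in Ube2c, Cdk1 and Cdc25b the CCAAT box reads on the opposite strand, as ATTGG. The following pair is shown for contrast, because no CHR letters were found in either window. Ccnb1 held 2 CCAAT boxes, and Nusap1, the member that varied most between lines, held neither element.

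Ccnb1 (chr13:100786457-100786606, minus strand): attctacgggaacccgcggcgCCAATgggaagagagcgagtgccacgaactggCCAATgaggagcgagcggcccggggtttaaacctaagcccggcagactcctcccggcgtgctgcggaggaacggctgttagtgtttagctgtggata
Nusap1 (chr2:119618178-119618327, plus strand): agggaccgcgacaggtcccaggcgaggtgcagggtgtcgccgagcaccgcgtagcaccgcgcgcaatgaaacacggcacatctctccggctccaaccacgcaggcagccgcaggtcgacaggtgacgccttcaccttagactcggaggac

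CHR letters were present in 22 of 29 windows (75.9%), against 21.7% of the 27025 genes with a window. CCAAT was present in 22 of 29 (75.9%), against 41.1% of all. Both together occurred in 20 of 29 (69.0%), against 9.65%. At least 2 CCAAT boxes were found in 14 of 29 windows (48.3%), against 13.3% of all, with 6 each in Top2a and Ube2c. The E2F letters were found in 1 window, that of Cdk1 (3.45%, against 2.12% of all). These are matches of letters and not measured binding sites, and a window without a match says only that these letters are not in it.

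In the 20 genes with both elements, the closest CCAAT box upstream of the CHR match nearest to the start lay at a median distance of 35 bases between their first letters (9 in Kif23 to 153 in Bub1b). Such a box was present in all 20, which the shape of the window and the choice of the CHR match favour. Of the 30 CHR matches, 20 began within 50 bases of the start, each in another gene, and 14 of these 20 read TTTGAA or TTCGAA on the strand of the gene. CCAAT boxes, 47 in all, began at a median position of -74. Within the narrower window of 100 bases before to 50 after the start, the CHR was kept in 21 of 29 genes (72.4%, against 9.87% of all) and both elements in 17 (58.6%, against 2.83%). The windows of Birc5, Mad2l1, Mybl2, Nuf2 and Nusap1 held neither element.

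**Figure D1:**
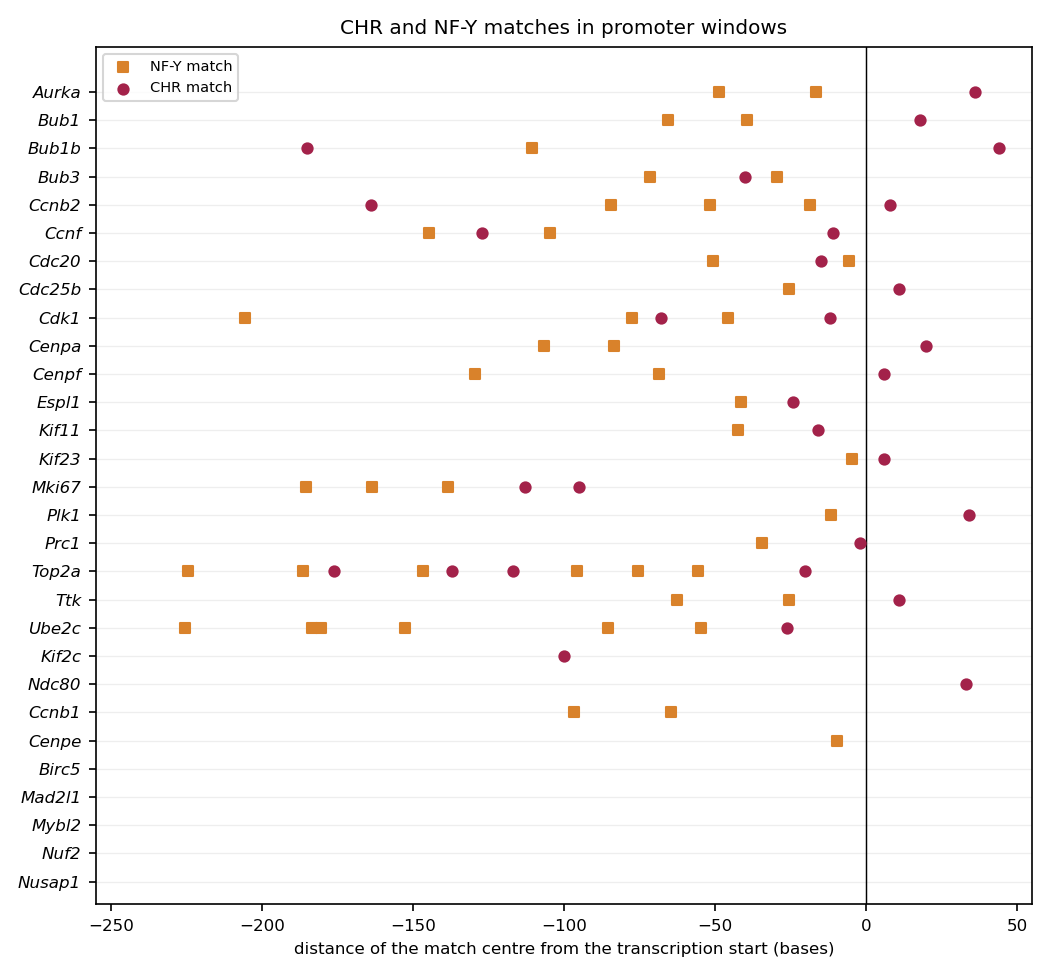
Position of each CHR match (circles) and CCAAT match (squares, labelled NF-Y) on either strand in the promoter windows of the 29 genes with a window, with distance from the start of transcription in bases on the x axis and genes as rows. In the 20 upper rows, which hold both elements, at least 1 square lies to the left of the CHR circle nearest the start, and in Cdc20 and Bub3 another lies to its right, while the 5 lowest rows hold neither element.

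The mitotic genes were expressed at a substantial level in every line. Together they took 0.837%, 0.915% and 0.860% of all counts (mean 0.871% ± 0.0401, SD, n = 3), from 670 counts for Cdc25c in line 2 to 29591 for Top2a in line 3. All 36 had at least 100 counts in every line, so all passed the filter of 10 counts in total that left 13974 genes for testing.

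To compare levels between genes, counts were divided by the kilobases of all annotated exons of a gene merged (RPKM, after TMM scaling of the libraries). Top2a, the topoisomerase that untangles sister chromatids, was at 128, 144 and 129 RPKM in lines 1 to 3. Mki67, which coats mitotic chromosomes and is read as the Ki-67 proliferation marker, was at 119, 135 and 115 RPKM. Cdc20, the activator of the anaphase promoting complex, was at 115, 114 and 116 RPKM. These 3 led the order. The range of Mki67 over the lines overlapped with those of Top2a and Cdc20, whereas Top2a was above Cdc20 in every line. Cdc20 also overlapped with Ccnb2 and Ccna2, which follow, so its place next to these genes is not resolved.

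Next came Ccnb2 at 114 ± 8.92 RPKM and Ccna2, the gene of cyclin A2, at 112 ± 4.64 RPKM (mean ± SD, n = 3). After these 5 a gap followed, with Plk1, the kinase of spindle assembly and mitotic entry, at 78.9 ± 2.52 RPKM. At the low end stood Cdc25c, a phosphatase that activates CDK1, at 6.76, 6.90 and 8.0 RPKM. Ndc80, the microtubule-binding subunit of the outer kinetochore, was at 8.88, 10.6 and 8.56 RPKM, and Cenpf, a large kinetochore and nuclear matrix protein, at 11.5, 13.9 and 9.71 RPKM. The last 3 did not overlap with the leading genes in any line.

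The median over the 36 genes was 40.1 RPKM. Of the 35 pairs of neighbours in the order, 30 overlapped in their range over the 3 lines, so most single steps of the order are within the spread between lines. The order also depended on the length used. With the length of the transcript that has the longest coding sequence, the median was 59.0 RPKM, 19 of 36 genes moved by at least 5 places, and 6 of the top 10 were the same. Top2a stayed at the top by either length, whereas Birc5, Cenpa and Ube2c, whose merged exons are much longer than their main transcript, came to places 2, 3 and 4 at 169, 162 and 160.2 RPKM. Cdc25c and Cenpf were the lowest pair by that length, at 18.3 and 16.2 RPKM.

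**Figure D2:**
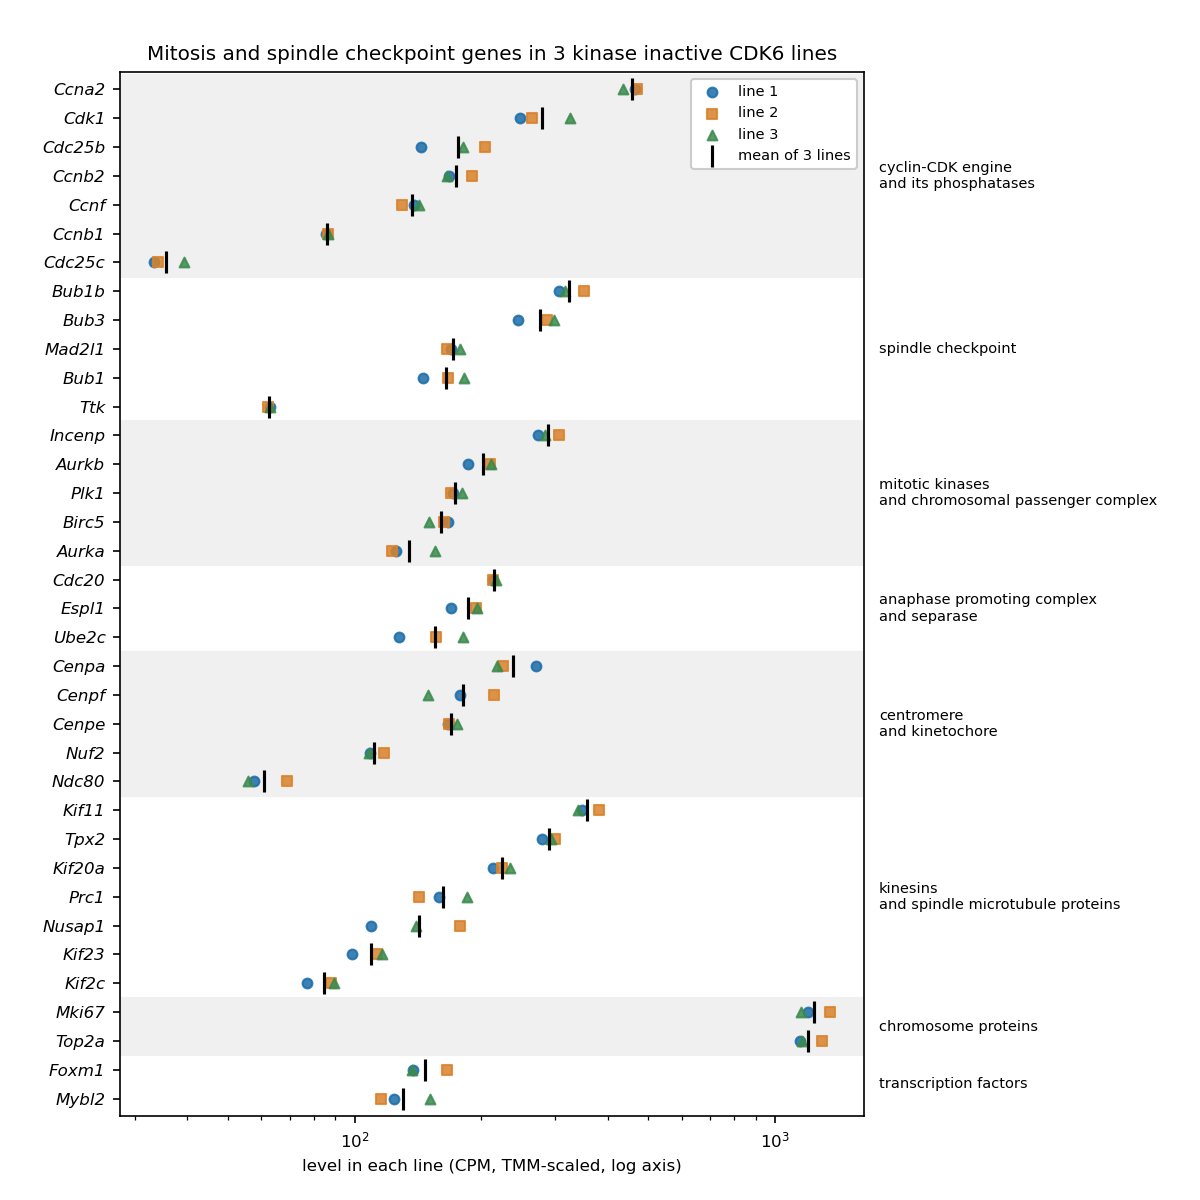
Level of each gene in CPM (x axis, log scale, counts scaled by TMM) in line 1 (circles), line 2 (squares) and line 3 (triangles), with the mean as a vertical bar and the genes grouped by role. Mki67 and Top2a lie above 1000 CPM in each line, Cdc25c lies below 40 CPM, and for most genes the 3 symbols lie close together.

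The lines were then compared gene by gene on the CPM scale. A chi-square test of homogeneity asked whether the counts of a gene differed between the 3 libraries by more than counting noise, with Benjamini-Hochberg adjustment over the 13974 genes at 0.05. It compares these libraries and not conditions. By this test 32 of 36 mitotic genes differed between lines, next to 66.8% of all genes tested and 82.9% of the 7281 genes with a mean of at least 20 CPM, which all 36 exceeded. Without line 2 the number was 20 of 36, and without line 1 or line 3 it was 24 or 25. At this depth small differences pass, so size was considered as well. Only Nusap1 differed by at least 1.5-fold between its highest and lowest line, 1 of 36, next to 24.5% of all genes tested and 16.2% of those with at least 20 CPM. Without line 1, line 2 or line 3 the last share was 9.78%, 11.2% or 6.28%, next to 0, 0 and 1 of the 36 genes. The group at 20 CPM was added after the data were seen.

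Expressed as the range between the highest and lowest line in log2(CPM + 1), the median over the mitotic genes was 0.20. It was 0.32 over all genes tested and 0.26 over genes with at least 20 CPM. The SD over lines had a median of 0.11 log2 units, next to 0.17 and 0.14. The biological coefficient of variation estimated by edgeR gave a median of 0.131 for the mitotic genes, next to 0.279 and 0.169. By each of these measures the median mitotic gene varied less between the lines than the median of either background. Without line 3 the SD had a median of 0.11 for the mitotic genes and 0.13 for all genes tested, a smaller gap than with all lines. Without line 1 or line 2 it was 0.09 or 0.08 next to 0.14 or 0.15. The SD of genes with at least 20 CPM was not recomputed without a line, so the comparison with that group was not checked in this way. The mitotic genes were also higher, with a median of 172 CPM next to 73.4 CPM for genes with at least 20 CPM, and the part of the level in this difference was not tested.

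**Figure D3:**
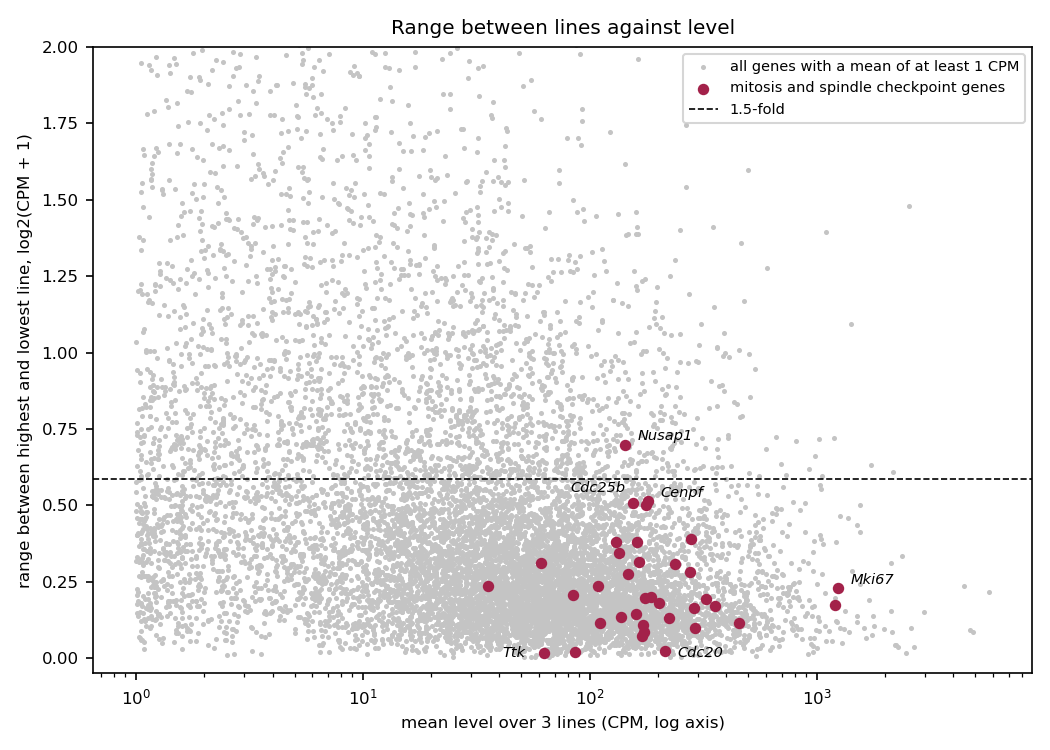
Range between the highest and lowest line in log2(CPM + 1) (y axis) against the mean level in CPM (x axis, log scale) for the 36 mitotic genes (large points) and all genes with a mean of at least 1 CPM (small points), with 1.5-fold as a dashed line. Nusap1 alone among the mitotic genes lies above the line, and 384 of the 11018 genes lie above the top of the axis at 2.

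Nusap1 encodes a protein that bundles spindle microtubules around chromosomes and lies on chromosome 2 (chr2:119618298-119651244, mm10, plus strand). It was at 109 CPM in line 1, 178 CPM in line 2 and 139.7 CPM in line 3. The lines were spread evenly, with line 1 lowest and line 2 highest. Line 2 exceeded line 1 by 1.63-fold (95% exact binomial interval 1.55 to 1.72, for a pair of lines chosen as highest and lowest). Without line 1 or without line 2 its range was 0.35 or 0.33 and 0 of 36 genes reached 1.5-fold, so the call rests on that pair of lines.

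A further 5 genes had the largest ranges after Nusap1. Cenpf was at 178, 214 and 149.8 CPM in lines 1 to 3, a range of 0.51. Ube2c, the E2 enzyme that starts ubiquitin chains for the anaphase promoting complex, was at 127, 156 and 182 CPM, also 0.51. Their orders of the lines differed, with line 3 lowest for Cenpf and highest for Ube2c. Cdc25b, the phosphatase that starts CDK1 activation, was at 144, 204 and 181 CPM, a range of 0.50. Cdk1, the kinase itself, was at 248, 265 and 325 CPM, a range of 0.39, and Mybl2 at 124, 116 and 151 CPM, a range of 0.38. Highest over lowest line gave 1.43-fold for Cenpf (95% interval 1.37 to 1.5), 1.43-fold for Ube2c (1.36 to 1.5), 1.42-fold for Cdc25b (1.35 to 1.49) and 1.31-fold for Cdk1 (1.27 to 1.36).

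The 4 genes that did not pass the test were also those with the smallest ranges. Ttk, the MPS1 kinase that starts checkpoint signalling at kinetochores, was at 63.0, 62.2 and 62.9 CPM. Ccnb1, the gene of cyclin B1, was at 85.4, 86.5 and 86.5 CPM. The 3 lines were almost level for both genes, and the intervals of the fold between highest and lowest line, 0.937 to 1.09 and 0.952 to 1.08, included 1. Cdc20 was at 213.9, 213.8 and 217 CPM (interval 0.977 to 1.06). Cenpe, the kinesin that carries chromosomes to the spindle equator, was at 167, 168 and 175 CPM, and its interval of 1.01 to 1.10 did not include 1. The upper bounds for these 4 genes were thus 1.06-fold to 1.10-fold.

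For the groups by role that follow, the shares among genes with at least 20 CPM were 82.9% that differed and 16.2% by 1.5-fold. Lowest in lines 1 and 3 were 36.1% and 34.1% of these genes. Within the cyclin-CDK group, 6 of 7 genes differed between lines and 0 reached 1.5-fold. Besides Cdk1 and Cdc25b, these were Ccna2 at 464, 471 and 435 CPM, Ccnb2 at 167, 190.2 and 166 CPM, Ccnf and Cdc25c. The cyclin B genes thus differed from each other, with line 2 above the other lines for Ccnb2 and all lines level for Ccnb1. Ccnf, whose cyclin F recruits substrates to an SCF ubiquitin ligase, had a range of 0.14, and Cdc25c a range of 0.24.

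Among the spindle checkpoint genes, 4 of 5 differed, all by less than 1.5-fold. Bub1b, which encodes the BUBR1 subunit of the mitotic checkpoint complex, led the group at 307, 351 and 316 CPM. Bub3, its partner at the kinetochore, was at 245, 287 and 298 CPM, and Bub1, a kinase that also binds BUB3, was at 146, 167 and 182 CPM. Bub1 and Bub3 shared the order of the lines, with line 1 lowest and line 3 highest, and Bub1b was highest in line 2. Mad2l1, which encodes the MAD2 inhibitor of CDC20, had a range of 0.11.

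All 5 genes of the mitotic kinases and the chromosomal passenger complex differed between lines, with 0 at 1.5-fold. Plk1 had the highest level per length of the group and was at 171, 169 and 179.7 CPM. Incenp, the scaffold of the passenger complex, was at 273, 306 and 285 CPM, and Aurkb, its kinase, at 186, 209.6 and 211 CPM. Both were lowest in line 1. Birc5, the survivin subunit of the same complex, went the other way, at 166, 164 and 150.4 CPM, so that the subunits of the complex did not share an order of the lines. Aurka, the kinase of the spindle poles, was at 125, 122 and 156 CPM, with line 3 above the other lines.

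Of the genes of the anaphase promoting complex and separase, Ube2c and Espl1 differed and Cdc20 did not. Espl1, which encodes separase, was at 169.8, 194 and 195 CPM. Line 1 was the low line for it and for Ube2c.

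Of the 5 centromere and kinetochore genes, 4 differed between lines, and 4 of 5 were lowest in line 3. The median deviation of this group, each gene measured from its own mean, was -0.03, 0.07 and -0.12 log2 units in lines 1 to 3. Ndc80 was at 57.7, 69.1 and 55.6 CPM, and Nuf2, its dimer partner, at 109, 117 and 108 CPM, both highest in line 2. Cenpa, the histone H3 variant of centromeres and the highest of the group per length, was at 271, 225 and 219 CPM and was highest in line 1. Cenpe was the member of this group that was highest in line 3, with its values above.

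All 7 genes of the kinesins and spindle microtubule proteins differed, and 5 were lowest in line 1. Tpx2, the activator of Aurora A and the highest of the group per length, was at 279.8, 299 and 293 CPM. Kif11, the Eg5 motor that separates spindle poles, was at 347, 382 and 339.98 CPM and was highest in line 2. Prc1, which bundles the midzone of the spindle, was at 158, 142 and 185 CPM, a range of 0.38, and was highest in line 3. Kif23, Kif20a and Kif2c, motors of cytokinesis and of microtubule depolymerization, had ranges of 0.24, 0.13 and 0.21 and were each lowest in line 1 and highest in line 3.

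Both chromosome proteins were highest in line 2, Mki67 at 1199.8, 1355 and 1156 CPM and Top2a at 1150.3, 1296 and 1162 CPM. Both transcription factors differed between lines and in opposite order. Foxm1 was at 138, 166 and 137 CPM and was highest in line 2, the line in which Mybl2 was lowest.

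Taking the 36 genes together, line 1 was the lowest line for 18, line 2 for 8 and line 3 for 10. Among genes with at least 20 CPM, 36.1%, 29.8% and 34.1% were lowest in lines 1, 2 and 3. Line 1 was the highest line for 3 of the 36, namely Cenpa, Birc5 and Ttk, line 2 for 14 and line 3 for 19, next to 29.4%, 32.6% and 38.0%. The median deviation was -0.06, 0.04 and 0.03 log2 units in lines 1, 2 and 3, and -0.01, 0.00 and 0.01 over genes with at least 20 CPM. Summed over the genes, the levels were 8319, 9101 and 8697 CPM. Mki67 and Top2a alone made up 2350, 2651 and 2317 CPM of these sums, so the sums lean on 2 genes that were highest in line 2. By sum, line 2 was the highest line, and by number more genes peaked in line 3. The latter turned around with library size as the only scaling, by which 18 genes were highest in line 2 and 14 in line 3. In bulk RNA, fewer dividing cells and less of these transcripts per dividing cell cannot be told apart. B-cell precursor markers were likewise mostly lowest in line 1 (7 of 10), with a median deviation of -0.08, 0.10 and -0.02. Unlike the mitotic genes, they were highest in line 2 for 8 of 10 and in line 3 for 2. The part of these markers in the result was not tested.

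**Figure D4:**
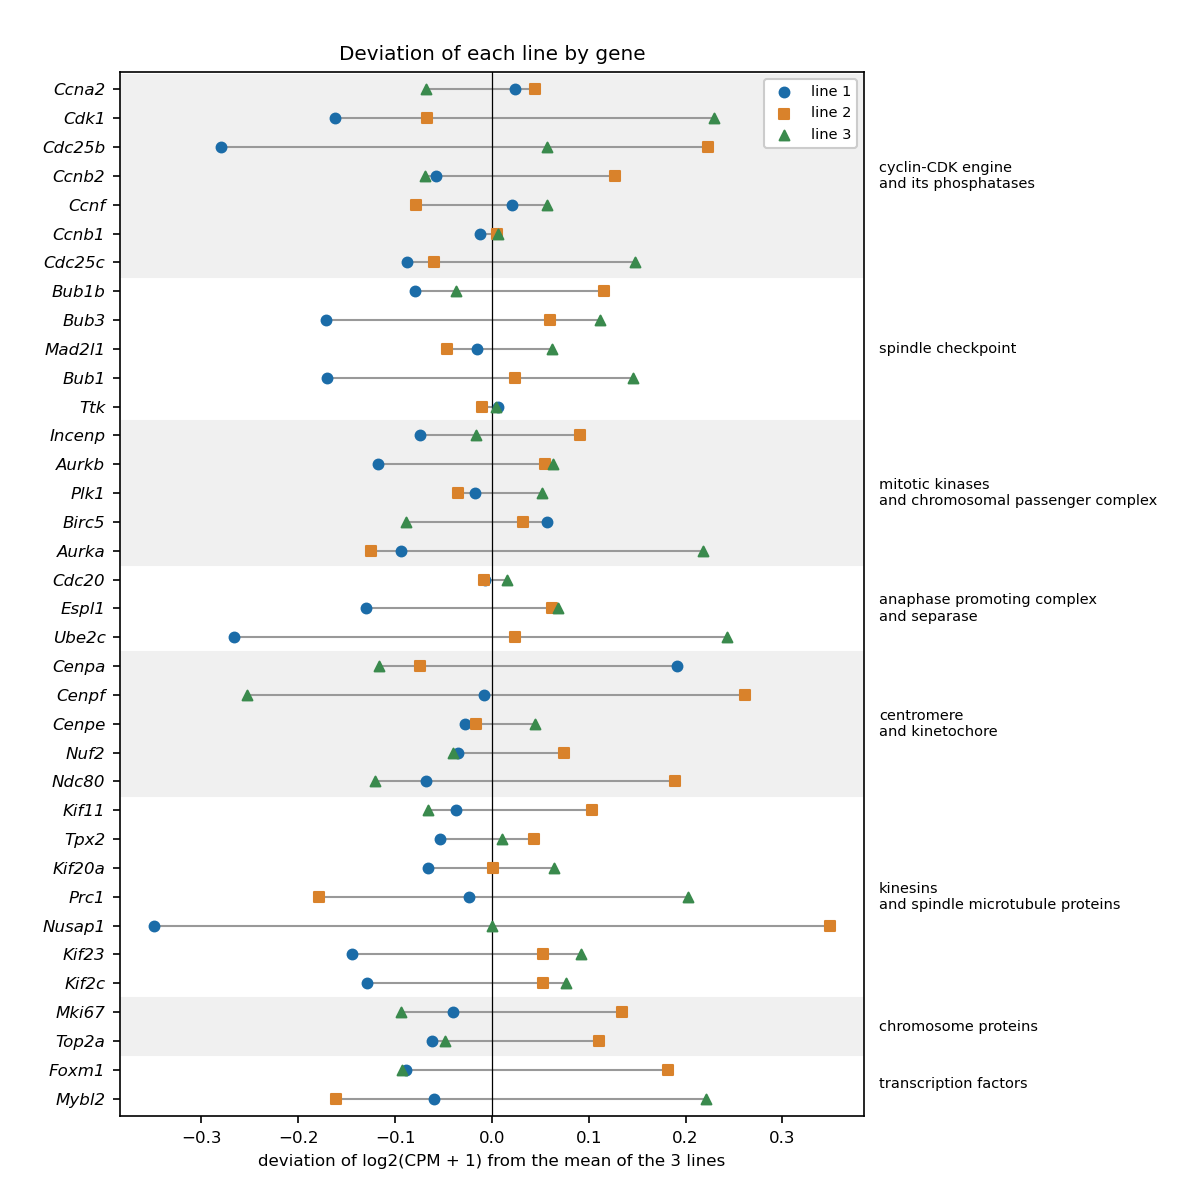
Deviation of log2(CPM + 1) from the mean of the 3 lines (x axis) for each gene by role, with circles for line 1, squares for line 2 and triangles for line 3 joined by a bar that spans the range. Circles lie to the left of 0 for most genes, Nusap1 has the widest bar, and Ttk, Ccnb1 and Cdc20 have almost none.

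Genes differed in which line was highest. Of the 14 genes highest in line 2, several act on chromosomes and kinetochores (Mki67, Top2a, Cenpf, Ndc80, Nuf2), but Ccnb2, Cdc25b and Foxm1 were among them too. The 19 genes highest in line 3 include Cdk1, Aurka, Ube2c, Bub1 and Prc1. Transcript length moved with this contrast. Over genes with at least 20 CPM, the median difference of line 2 minus line 3 went from -0.05 in the fifth of genes with the shortest transcripts to 0.08 in the fifth with the longest ones, a comparison added after the data were seen. The 6 mitotic genes with the longest transcripts (Cenpe, Cenpf, Espl1, Mad2l1, Mki67 and Top2a) had a median of 0.08, and the 4 with the shortest (Birc5, Ccnb2, Cenpa and Ube2c) had 0.08 as well. The part of length in the result was not tested.

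The promoter class was set beside the range between lines, without a test. The 20 genes with both CHR and CCAAT had a median range of 0.23 (0.02 in Ttk to 0.51 in Cenpf), and the 9 with 1 element or neither had 0.14 (0.02 in Ccnb1 to 0.70 in Nusap1). Genes of both kinds stood at both ends. The median deviation in line 1 was -0.06 for the former and -0.03 for the latter. These values are given as a description, and 7 genes without a window are not in them.

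Each gene was also set beside the median deviation of the other genes with at least 20 CPM within 5 Mb, a comparison chosen after the data were seen. For 33 of 36 genes this median was within 0.1 log2 units of 0 in every line. The exceptions were Cenpa, Cdk1 and Mad2l1. The 55 neighbours of Cenpa on chromosome 5 had medians of 0.27, -0.07 and -0.22, and Cenpa itself deviated by 0.19, -0.07 and -0.12, in the same order. The 9 neighbours of Cdk1 on chromosome 10 had -0.09, -0.06 and 0.15, next to -0.16, -0.07 and 0.23 for Cdk1. For Mad2l1 on chromosome 6, 9 neighbours had -0.13, -0.01 and 0.14, next to -0.02, -0.05 and 0.06. Nusap1 stood apart from its 52 neighbours, whose medians were -0.05, 0.06 and -0.03 against -0.35, 0.35 and 0.00 for the gene. The part of the neighbours in these results was not tested.

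Chromosome 2 holds 8 of the 36 genes (Cdc25b, Aurka, Bub1, Bub1b, Tpx2, Nusap1, Ube2c and Mybl2), more than any other chromosome. Of these 8, 6 were lowest in line 1, next to 36.1% of genes with at least 20 CPM. The 8 had a median deviation of -0.13 in that line, whereas the medians of their neighbours in line 1 lay between -0.05 and 0.02.

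**Figure D5:**
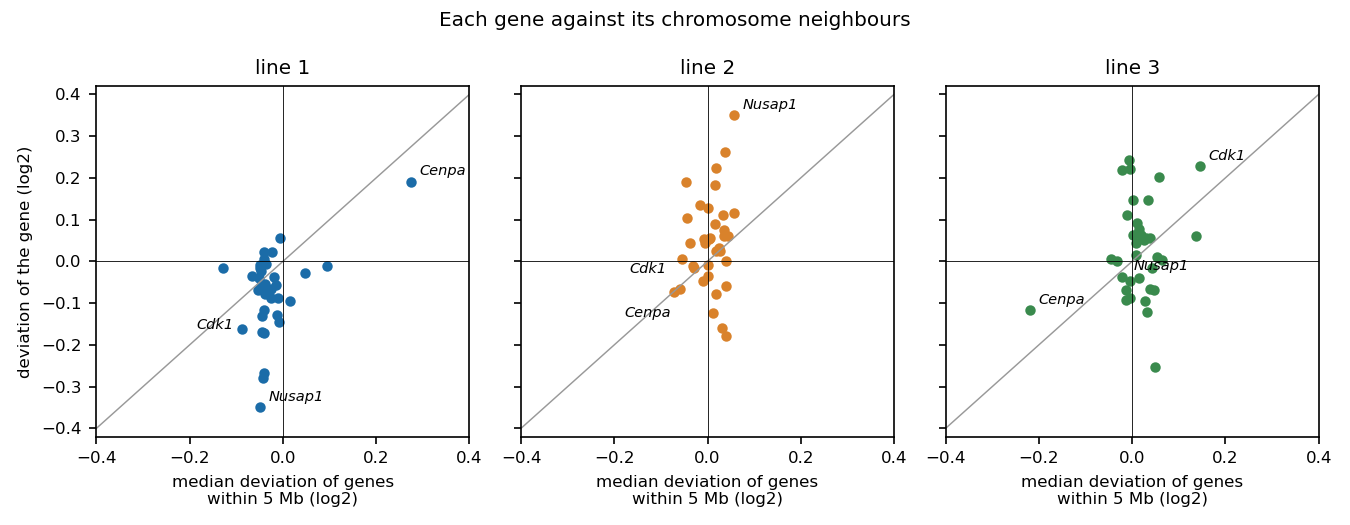
Deviation of each of the 36 genes from the mean of the lines (y axis, log2) against the median deviation of other genes with at least 20 CPM within 5 Mb (x axis, log2), in 1 panel per line, with the diagonal of equal deviation in grey. Most neighbourhoods lie near 0 on the x axis, Cenpa lies at 0.27 in line 1 and -0.22 in line 3, and Nusap1 lies far from 0 on the y axis in lines 1 and 2.

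For context, related lists were counted in the same way. The shares to set beside them were 66.8% of all genes tested and 82.9% of genes with at least 20 CPM that differed. By at least 1.5-fold they were 24.5% and 16.2%. Among genes with at least 20 CPM, 36.1% and 34.1% were lowest in lines 1 and 3, and 32.6% were highest in line 2. Of 74 other mitosis genes, 59 (79.7%) differed between lines and 9 (12.2%) by at least 1.5-fold, with a median range of 0.24. They were lowest in line 1 for 32 and in line 3 for 34, and highest in line 2 for 46. Within this list Cks1b, a CDK subunit, was the highest per length and was level at 149, 148 and 149.7 CPM. The genes past 1.5-fold included Cenpb, Cenpc1, Cenpi, Cenpp, Kif4, Pttg1, Cks2 and Mad1l1. Kif4 and Cenpi on chromosome X were highest in line 3 with neighbour medians of 0.58 and 0.63, and Cenpp and Cks2 on chromosome 13 were highest in line 2 with neighbour medians of 0.53 and 0.52. For Cenpb and Pttg1, the neighbour medians were within 0.05 of 0 in each line.

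Of the 17 subunits and regulators of the anaphase promoting complex, 14 (82.4%) differed, near the share of genes with at least 20 CPM, and 0 by 1.5-fold. Anapc5, the highest per length, was at 1022, 916 and 718 CPM, and Anapc2, the cullin subunit with the largest range, at 92.3, 135 and 117 CPM. The median range over this list was 0.28, and Cdc20, the activator of the complex, had 0.02. Of the 13 genes of mitotic entry control, 12 differed and 1 by 1.5-fold. That gene was Mnat1, a subunit of the CDK-activating kinase, at 33.1, 31.5 and 16.6 CPM, and Gtse1, the highest per length, was at 119, 128 and 171 CPM.

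Of the 15 subunits of DREAM, the MYB-MuvB complex and NF-Y, which act on the promoter elements shown above, 11 differed and 1 by 1.5-fold. Line 1 was the lowest line for 12 of the 15, next to 36.1% of genes with at least 20 CPM, with a median deviation of -0.09. E2f4, the highest per length and an E2F of the DREAM complex, was at 263, 277 and 301 CPM. The gene with the largest range, E2f5, was at 11.5, 18.2 and 19.7 CPM. For both genes line 1 was lowest and line 3 highest.

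The G1/S and replication genes, which peak earlier in the cell cycle and are bound by E2F, varied more. All 32 differed and 7 by at least 1.5-fold, with a median range of 0.38. Line 1 was the lowest line for 26 of 32, next to 36.1% of genes with at least 20 CPM. The median deviation was -0.15, 0.13 and 0.00. Mcm3, a subunit of the replicative helicase and the highest per length, was at 482, 612 and 568 CPM. Tyms, the thymidylate synthase gene, had the largest range, 1.32, at 109, 90.2 and 43.2 CPM. For the 36 mitotic genes the median in line 1 was -0.06. The difference between the lists was not tested.

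Reads shared with other genes touch some of these values. For 13 of the 36 genes no 50-base stretch of the main transcript, the length of a read, occurred in a transcript of another gene, and for 7 genes over 10% did. Ccnb1 shared 42.1% of its stretches, mainly with pseudogenes, of which Ccnb1-ps had 7, 8 and 10 counts. Kif20a shared 31.2% with Cdc23, a subunit of the anaphase promoting complex on the opposite strand that had 2762, 2552 and 3753 counts. Prc1 shared 24.7%, mostly with Rccd1, Mybl2 23.8%, Ccna2 15.9% with Exosc9, Cdc20 11.6% and Plk1 10.9%. Cdc23, Exosc9 and Rccd1 lie on the strand opposite to their partner. The strand setting of the counting was not given in the sources used here, so reads from such overlapping pairs cannot be told apart. The levels of Kif20a, Prc1 and Ccna2 are uncertain to that extent. The treatment of reads with several matches was not given either, so the levels of Ccnb1, Mybl2, Cdc20 and Plk1 are uncertain as well. This includes the near-level values of Ccnb1 and Cdc20.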

How the data were processed

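Poly(A) RNA of 3 Cdk6 KM/KM BCR::ABL1+ lines was sequenced as 50-base single-end reads per the labels. The authors trimmed reads (Trimmomatic), merged lanes, mapped with STAR to mm10 and used featureCounts on the exons of Gencode M13. The deposited values are unnormalized counts for each gene. The treatment of reads with several matches was not given in the sources used here. The table holds 6 other columns of per-sample values, which were not used here, and 0 rows that name no gene.

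Identifiers were matched to symbols of Gencode M21 on the same assembly (50376 of 50686 genes). Counts were scaled by TMM in edgeR 4.0.16 (R 4.3.3) and given as CPM, as RPKM over merged exons, or as log2(CPM + 1). Genes with at least 10 counts in total were tested by chi-square against the scaled library sizes (scipy 1.17.1), with Benjamini-Hochberg adjustment at 0.05. With 1 group no test between conditions exists. A call means only that the libraries differ by more than counting noise. The script was tested on simulated data.

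The 36 genes, the related lists and the promoter motifs were chosen with earlier results of these data known. Values in every line are given for the 3 highest and 3 lowest genes per length, the 6 largest and 4 smallest ranges and the highest gene of each role, and from each related list for the highest gene and the largest range; other genes were named after their values were seen. An item that this rule would name is not reported here. Results were recomputed with size factors from DESeq2 1.42.0 or with library sizes only, without a filter or with 10 counts required per line, with 0.1 CPM as pseudocount, with another gene length, with a shorter promoter window and without each line in turn.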

Additional observations from a re-analysis of the deposited data

How the results depend on the processing

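No paired analysis was possible because there is 1 group of 3 libraries. Of the summary values of the mitotic genes, 85 stayed near their value under the alternatives and 10 moved. A count was taken as near within 1.5-fold, and another value when it moved by less than its SD over lines or genes. This rule is wide, and a median deviation could change sign and still be taken as near. That was so for line 2 without line 1, which went from 0.044 to -0.0033. DESeq2 size factors gave 32 genes that differed between lines, library size alone 30 (Mad2l1 and Plk1 were lost), no filter 33 (Cenpe was gained) and at least 10 counts in every line 32. Leaving out each line gave 20 to 25 genes that differed, with the lowest number without line 2, and 0 to 1 genes past 1.5-fold. With 2 lines left, each gene is lowest in 1 and highest in the other, so such counts grow by construction: line 2 was lowest for 10 to 20 genes and highest for 16 to 26, line 3 lowest for 12 to 16 and highest for 20 to 24, and line 1 lowest for 24 to 26 and highest for 10 to 12. Without line 1, the median deviations of lines 2 and 3 were -0.0033 and 0.0033. The median level was 59.0 RPKM with the main transcript length, and the shorter promoter window held 0 genes with E2F letters. Of 288 values of single genes, 258 stayed on their side of the threshold, 29 lost the call and 1 gained it. The share of genes with at least 20 CPM that differed by 1.5-fold was 6.28% to 11.2% when a line was left out. With library size alone, 18 genes were highest in line 2 and 14 in line 3. Each gene had at least 670 counts per line, and 3 lines are few for an estimate of spread. For Ttk, Ccnb1 and Cdc20 a difference between lines was not detectable at this depth.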
